A study of Mus musculus with 38 samples.

Results

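The 6 trophoblast transcription factors Tfap2c, Eomes, Elf5, Hand1, Ascl2 and Tfap2a were followed through a series of mouse reprogramming cultures, in part because one population of its single cells carries the name placenta-like. They were found in the files by gene name. All 6 had a row in each expression table, so they were 6 of 35976 genes in an FPKM table of 17 libraries, 6 of 37108 in an FPKM table of 8 libraries and 6 of 20695 in a table of single-cell UMI counts.

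The study asked how the morphogen BMP4 turns the conversion of mouse embryonic fibroblasts (MEFs) to pluripotency towards another fate, and what the factor SALL4 and the NuRD chromatin complex do in that choice. All cultures started from MEFs of E13.5 embryos of OG2 by 129S4/SvJaeJ crosses, which carry an Oct4-GFP reporter and were not selected by sex. Retroviruses delivered Jdp2, Glis1 and Esrrb (JGE), these with Sall4 (JGES), with Oct4 (JGEO) or with both (JGESO), and the cells were kept in iCD3 medium with BMP4 at 10 ng/ml (BMP4+) or without it (BMP4-). Bulk RNA-seq covered JGES at day 0 and, BMP4- and BMP4+, at days 1, 3, 5 and 7, and the other factor sets at day 7 only, while scRNA-seq covered the 2 JGES cultures at day 7. In a further arm with no BMP4, wild-type SALL4 (SALL4-WT) or SALL4-delN12, which lacks the N-terminal residues that contact NuRD, was delivered alone, with RNA-seq and ATAC-seq at days 1, 5, 9 and 11, ATAC-seq of MEFs, and Cut&Tag for SALL4 and for the active mark H3K27ac at day 6. The transduced cells were mixed populations and not clones, and every condition was 1 sample. No spread between replicates could be measured, no test was run, and intervals given for single cells cover counting error only.

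Trophoblast is the outer lineage of the early embryo and builds the fetal part of the placenta. Its stem cells are held by a circuit in which Cdx2, Eomes, Elf5 and Tfap2c keep one another on, whereas Hand1 promotes giant cells and Ascl2 maintains the spongiotrophoblast. Each of these factors also works elsewhere, so that one of them alone does not mark the lineage. Tfap2c is used in germ cells and in pluripotent cells, Eomes in mesendoderm, Hand1 in extraembryonic mesoderm and heart, Ascl2 in intestinal stem cells and lymphocytes, Elf5 in glandular epithelium and Tfap2a in neural crest and epidermis.

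On mm10 with GENCODE annotation, Tfap2c lay at chr2:172549593-172558622 on the plus strand and Eomes at chr9:118478212-118486132, also on the plus strand. Elf5 lay at chr2:103411688-103450989 on the plus strand, Hand1 at chr11:57828705-57832818 on the minus strand, Ascl2 at chr7:142966829-142969264 on the minus strand and Tfap2a at chr13:40715302-40738376 on the minus strand. Eomes overlapped 1 antisense gene (Gm33460) and Tfap2a overlapped 3 (Gm26688, Gm47061 and Gm47067). The sources used here do not state whether the bulk counting used strand, so reads of these partners may be included in the FPKM of Eomes and Tfap2a.

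Of the 6 genes, 4 matched the RefSeq promoter table (GRCm38), with 6 windows of 250 bases before a start. The 250 bases before the most upstream GENCODE start of Elf5 (chr2:103411438-103411687, plus strand, read from the RefSeq GRCm38 assembly) are shown because open chromatin and SALL4 differed there between the SALL4 forms, as described below. Capitals mark 1 match to the AP-2 letters GCCNNNGGC (the motif of Tfap2c and Tfap2a) at 243 to 235 bases before the start, and the run AATATT at 85 to 80 bases, which holds the AT-rich SALL4 letters ATATT on both strands in overlapping positions. The 250 bases before the start of Ascl2 (chr7:142969265-142969514, minus strand, RefSeq GRCm38) are shown because a weak ATAC-seq peak was called there in some libraries and not in others. Capitals mark its 2 E-boxes, CANNTG, the letters bound by helix-loop-helix factors such as ASCL2 and HAND1.
Elf5: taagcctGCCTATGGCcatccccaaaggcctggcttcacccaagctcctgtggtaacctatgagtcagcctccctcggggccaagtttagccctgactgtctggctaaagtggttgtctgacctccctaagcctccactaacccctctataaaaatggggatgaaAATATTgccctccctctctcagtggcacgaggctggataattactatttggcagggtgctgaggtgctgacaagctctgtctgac
Ascl2: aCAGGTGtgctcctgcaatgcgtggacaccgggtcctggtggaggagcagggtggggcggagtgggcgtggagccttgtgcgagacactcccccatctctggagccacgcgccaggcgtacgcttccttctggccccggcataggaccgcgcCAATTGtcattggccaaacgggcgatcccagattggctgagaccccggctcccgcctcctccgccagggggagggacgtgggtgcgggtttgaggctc

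Counted on both strands over the 32841 promoter windows of the same length, the AP-2 letters were in 13.7%, ATATT in 23.4% and the E-box in 66.2%. A match is a description of the letters only. None of the 6 windows of these genes in the promoter table held the AP-2 letters, the GATA letters AGATAA (9.99% of all windows) or the T-box letters AGGTGTGA (1.12%), and nothing about the binding of these factors follows from that.

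The samples were first set against their labels. In the bulk libraries that received it, Sall4 was between 174 FPKM (JGESO, BMP4-) and 971 FPKM (SALL4-delN12, day 9), against 2.09 and 6.23 FPKM in JGE and 28.9 and 30.3 FPKM in JGEO. The BMP target gene Id1 was higher with BMP4 in JGES on all 4 days (233 to 293 FPKM against 65.0 to 78.1) and in JGE (188 against 48.8), but not in JGEO (60.1 against 81.1) or JGESO (334 against 339). In the arm with SALL4 alone, which had no BMP4, Id1 was between 373.6 and 576.5 FPKM with SALL4-WT and between 213.7 and 261.4 FPKM with SALL4-delN12, and Sall4 itself was higher with SALL4-delN12 on each day (428 to 971 against 290.3 to 549 FPKM). The single-cell table gave 11335 BMP4+ and 8685 BMP4- cells with at least 4163 UMIs each, of which 2 barcodes occurred in both samples. Median depth differed, at 21205 UMIs in BMP4+ and 12738 in BMP4- cells, and the deposited cell types were used as given, with the label ParE read as the primitive endoderm-like cells (PrECLCs) of the study.

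The placenta-like cells were 385 BMP4+ cells, or 3.40% of that sample, with a median of 28906 UMIs, and no BMP4- cell carried the label. Tfap2c led among the 6 factors in these cells, at 57.0 CPM (the UMIs of a gene scaled to a fixed total of UMIs, exact 95% Poisson interval 52.8 to 61.5). Hand1 followed at 14.9 CPM (12.8 to 17.3), then Ascl2 at 5.64 CPM (4.37 to 7.16) and Tfap2a at 2.19 CPM (1.43 to 3.21). Elf5 at 1.01 CPM (0.522 to 1.76) and Eomes at 0.842 CPM (0.404 to 1.55) had the lowest values. Their intervals overlapped with each other and with that of Tfap2a, so that Tfap2a, Elf5 and Eomes could not be ordered. None of these intervals overlapped with that of Ascl2. The stem cell factors Elf5 and Eomes thus rested on 12 UMIs in 9 cells and 10 UMIs in 8 cells.

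Against the sum of all other BMP4+ cells, Tfap2c was 14.9-fold higher in the placenta-like cells (3.83 CPM in the others). Elf5 was 8.97-fold higher (0.113 CPM in the others), Hand1 6.52-fold (2.28 CPM) and Ascl2 3.98-fold (1.42 CPM). Tfap2a was close to the others with a fold of 0.933 (2.35 CPM), and Eomes lay below them at 0.304 of their level (2.77 CPM). By a size rule of at least 1 CPM in either group and a difference of at least 2-fold, 4 of the 6 factors were higher and 1 was lower. Over all 13136 genes that reached 1 CPM, 8.24% were higher and 17.3% were lower by the same rule. The calls of Elf5 and Eomes depended on the summary used. Elf5 was under 1 CPM in both groups by mean of cells (0.900 against 0.101 CPM) and without the 6% deepest cells (0.783 against 0.116 CPM). By mean of cells Eomes was at 1.38 against 2.58 CPM, short of 2-fold. The cells were clustered on their expression in the same data, and the genes behind the name are not given in full, so these folds describe the cluster and do not test it.

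**Figure D1:**
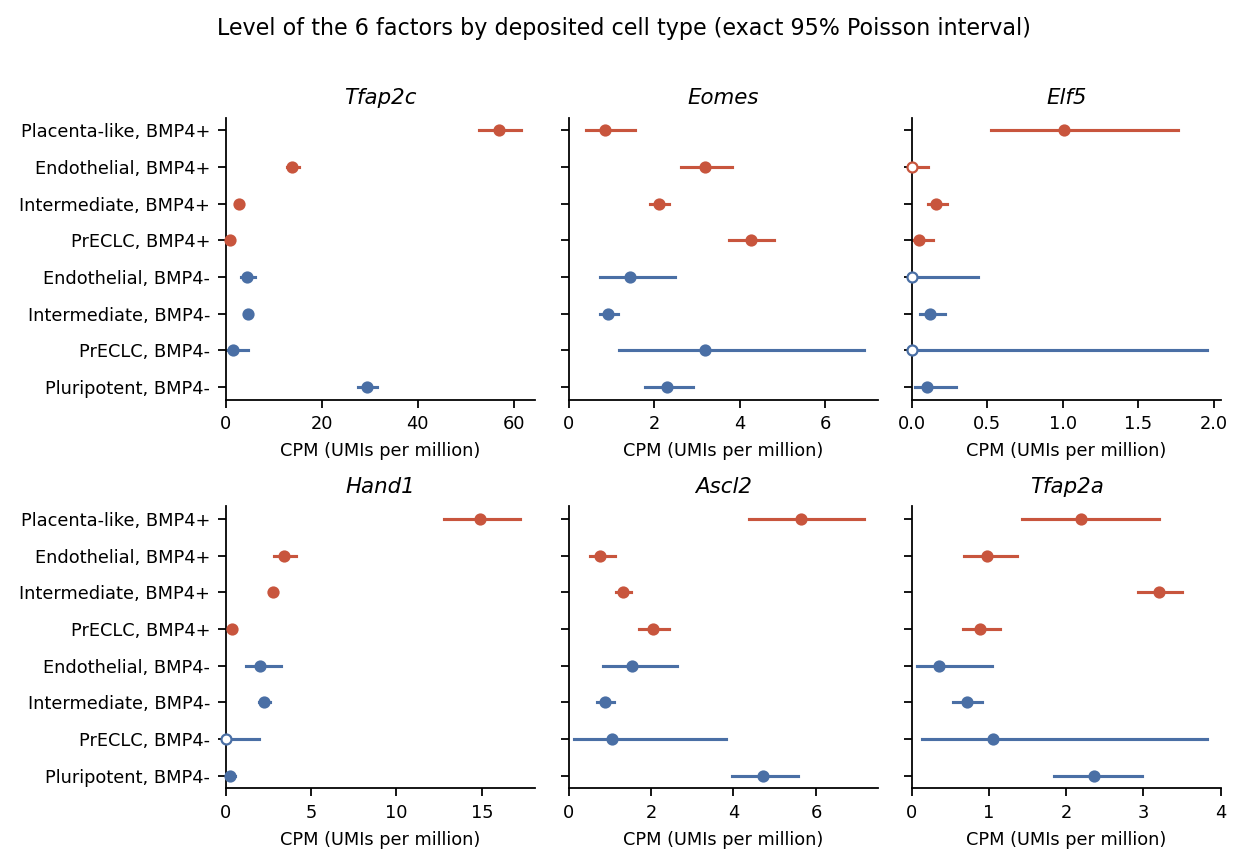
Level of each factor in CPM (x axis, a separate scale for each gene) in each deposited cell type of the BMP4+ sample (red) and the BMP4- sample (blue), 1 sample each; lines are exact 95% Poisson intervals and open circles mark no UMI. Tfap2c was highest in placenta-like cells at 57.0 CPM with pluripotent cells next at 29.5 CPM. Eomes had its highest value in BMP4+ PrECLCs at 4.25 CPM, with an interval that overlapped those of BMP4+ endothelial cells and BMP4- PrECLCs.

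The upper levels of Tfap2c across cell types did not overlap in their intervals. After placenta-like cells came the pluripotent BMP4- cells at 29.5 CPM (27.6 to 31.5) and the BMP4+ endothelial cells at 13.9 CPM (12.7 to 15.2). BMP4- intermediate cells at 4.68 CPM (4.22 to 5.17) and BMP4- endothelial cells at 4.51 CPM (3.19 to 6.19) did not differ beyond counting error, and BMP4+ intermediate cells were lower at 2.70 CPM (2.45 to 2.97). BMP4+ PrECLCs were lower still at 1.03 CPM (0.788 to 1.31), and BMP4- PrECLCs, at 1.59 CPM from 3 UMIs (0.327 to 4.64), could not be placed among the low types. A Tfap2c UMI was found in 59.2% of placenta-like cells, 32.9% of pluripotent cells and 15.7% of BMP4+ endothelial cells. The share was 2.11% in BMP4+ PrECLCs, the type with the lowest CPM value, at a median depth of 23772.5 UMIs. With every cell thinned to 4000 UMIs these shares were 17.9%, 10.7%, 5.02% and 0.506%.

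Hand1, the giant cell factor, was also highest in placenta-like cells, with 16.4% of cells holding a UMI (4.42% thinned). BMP4+ endothelial cells had 3.43 CPM (2.85 to 4.11), BMP4+ intermediate cells 2.77 CPM (2.52 to 3.04), BMP4- intermediate cells 2.26 CPM (1.95 to 2.61) and BMP4- endothelial cells 2.02 CPM (1.18 to 3.23), 4 levels whose neighbours overlapped within counting error. PrECLCs with 0.358 CPM and pluripotent cells with 0.270 CPM had little of it. The counts were uneven between cells: only 1.15% of the BMP4+ intermediate cells had a Hand1 UMI, and a single one of them held 103 of their 446 UMIs. A single BMP4+ endothelial cell held 48 of the 120 UMIs of that type, and a single placenta-like cell 28 of 177.

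Ascl2, the spongiotrophoblast factor, was nearly level between placenta-like cells at 5.64 CPM and pluripotent BMP4- cells at 4.72 CPM (3.97 to 5.57), whose intervals overlapped. The share of cells with an Ascl2 UMI went the other way, 4.94% (19 cells) against 6.96%, at median depths of 28906 and 15444 UMIs. BMP4+ PrECLCs came next at 2.05 CPM (1.71 to 2.44), then BMP4- endothelial cells at 1.54 CPM and BMP4+ intermediate cells at 1.32 CPM.

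Eomes, which trophoblast shares with mesendoderm, had its highest level in BMP4+ PrECLCs at 4.25 CPM (3.75 to 4.80), where 9.70% of cells had a UMI against 2.08% of placenta-like cells. BMP4+ endothelial cells at 3.18 CPM (2.61 to 3.83) and BMP4- PrECLCs at 3.17 CPM (1.16 to 6.91) did not differ beyond counting error. The intervals of both also overlapped with that of BMP4+ PrECLCs, so the top place was not clear. Pluripotent cells at 2.29 CPM and BMP4+ intermediate cells at 2.11 CPM followed. Placenta-like cells at 0.842 CPM and BMP4- intermediate cells at 0.926 CPM (0.731 to 1.16) had the lowest values and did not differ beyond counting error. Averaged over cells, so that each cell counts alike, they were at 1.38 and 0.810 CPM, and placenta-like cells remained under the other BMP4+ types.

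Elf5 was scarce everywhere. It had no UMI in either endothelial population (0 of 1453 BMP4+ and 0 of 507 BMP4- cells, where 3 counts of the total would be 0.206% and 0.592% of cells with a UMI, a limit on detection at this depth and not on cells expressing the gene). BMP4+ intermediate cells had 26 UMIs (0.161 CPM), BMP4- intermediate cells 10, and BMP4+ PrECLCs and pluripotent cells 3 each, and BMP4- PrECLCs had 0 in 142 cells, where 3 counts would be 2.11%. Placenta-like cells had 2.34% of cells with a UMI (exact binomial interval 1.07 to 4.39) against 0.126% of PrECLCs, and after thinning to 4000 UMIs no placenta-like cell had one. Tfap2a, the epidermal and neural crest member, had its highest value in BMP4+ intermediate cells at 3.20 CPM (2.93 to 3.49), followed by pluripotent cells at 2.36 CPM (1.84 to 2.98) and placenta-like cells at 2.19 CPM, and the 3 intervals overlapped.

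Few placenta-like cells showed several of the factors at once. Of the 385 cells, 128 had a UMI of none of them, 179 of 1, 67 of 2, 9 of 3 and 2 of 4, so that 20.3% (16.4 to 24.6) had 2 or more. Tfap2c alone was found in 152 cells and Tfap2c with Hand1, the most frequent pair, in 39. Among all other BMP4+ cells 1.53% had 2 or more and among pluripotent cells 4.60%. Thinned to 4000 UMIs per cell, the shares were 2.34% (1.07 to 4.39, 9 cells) in placenta-like cells, 0.0822% in all other BMP4+ cells and 0.548% in pluripotent cells.

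Within the placenta-like cells, the 228 with a Tfap2c UMI were compared with the 157 without, at median depths of 30819.5 and 26083 UMIs. Ascl2 was at 8.48 CPM (63 UMIs, in 7.02% of cells) against 0.899 CPM (4 UMIs, in 1.91%) and Hand1 at 16.8 CPM against 11.7 CPM. Rhox6, a placental homeobox gene, was at 862 CPM against 477 CPM, and Phlda2, an imprinted gene that limits placental growth, at 4161 CPM against 2662 CPM. Cdx2 was at 2.69 CPM (20 UMIs, in 2.19% of cells) against 8.54 CPM (38 UMIs, in 5.10%), and Gcm1, which drives syncytiotrophoblast, was close at 43.5 CPM against 37.3 CPM. These comparisons were chosen with the data in view, and the part of the depth gap between the groups was not tested.

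The label was checked against lists of trophoblast genes other than the 6 factors. Among 8 genes of stem trophoblast, 3 were higher by the size rule and none lower: Gata2 (247 against 48.1 CPM), Tead4 (6.23 against 2.97 CPM) and Cdx2 (4.88 against 1.95 CPM, in 3.38% of cells). Gata3 was level at 28.8 and 28.1 CPM, and Fgfr2, the receptor that keeps trophoblast stem cells dividing, was at 7.66 against 12.9 CPM. Of 12 genes of differentiated trophoblast, 6 were in the single-cell table, of which 3 were higher and 1 lower, and the defining markers Tpbpa and Prl3d1 were not analysed in these cells. Gcm1 was at 41.2 CPM against 0.109 CPM, Rhox6 at 718 against 6.30 CPM and Rhox9 at 405 against 3.45 CPM, while Plac1, at 33.9 against 18.9 CPM, stayed under 2-fold. Prl2c2, a giant cell hormone, and Syna, the syncytin of the syncytiotrophoblast, had no UMI in the 385 cells, against 268 and 20 UMIs in the other BMP4+ cells. Rhox6, Rhox9 and Prl2c2 have near-identical family members, so how their reads were shared out is uncertain.

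Simple epithelium was the most complete list in these cells, with 13 of 15 genes higher and none lower. Krt8 was at 995 CPM against 151 CPM, Krt18 at 1641 against 368 CPM, Krt7 at 43.8 against 4.22 CPM and Cdh1 at 83.0 against 16.0 CPM. Of 9 keratinocyte genes in the table, Krt14, Sfn and Grhl3 were higher and Krt5 was lower (8.67 against 35.3 CPM). All 6 endothelial markers were lower, as were 5 of 6 primitive endoderm and 5 of 6 fibroblast markers. The cells they were compared with include the endothelial cells and PrECLCs. Against BMP4+ intermediate cells alone, 3 of 6 primitive endoderm markers (Gata4, Sox17 and Cited1) were higher and 0 lower, with sums of 311 against 71.0 CPM. In that comparison 0 endothelial markers were higher and 2 lower, and all 6 fibroblast markers were lower. Of all genes, 14.6% were higher and 19% lower there. For other lineages that use these factors, placenta-like cells were again compared with all other BMP4+ cells. There 1 of 6 mesendoderm genes was higher and 2 lower, and 0 of 6 germ cell genes were higher and 2 lower. For neural crest and mesenchyme, 1 of 8 factors was higher and 5 lower. The pluripotency list went the other way, with 2 of 6 markers higher (Tdgf1 and Utf1) and 0 lower. With BMP4+ intermediate cells alone as the comparison, 5 of the 6 pluripotency markers were higher and 0 lower. UMIs of at least 3 of the 5 genes Spint1, St14, Ovol2, Krt8 and Gata2 were found in 333 of the 385 cells (86.5%) and in 1166 of the 10950 other BMP4+ cells, at median depths of 28906 and 20967.5 UMIs. These 5 genes were chosen with results of the same cells known, so the share is a description and no independent check of the label.

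Among genes found in at least 10% of placenta-like cells, the 10 with the highest fold over the other BMP4+ cells were Gcm1, Fam90a1b, Gm9112, Gm648, Wfdc2, Ceacam9, Slc22a3, Upk2, Rhox9 and Vgll1. Gcm1, Ceacam9, Rhox9 and Vgll1 are genes of trophoblast, and Upk2 and Wfdc2 are better known from urothelium and glandular epithelium. Wfdc2 was the most abundant of the 10, at 1346 CPM against 7.09 CPM. None of the 6 factors was among these 10. Set against the label, Gcm1, Rhox6, Rhox9, Gata2 and Tfap2c were present and higher. Ascl2, Cdx2, Elf5 and Eomes had a UMI in at most 4.94% of the cells, and Prl2c2 and Syna in none of the 385, where 3 counts would be 0.779% of cells with a UMI.

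**Figure D2:**
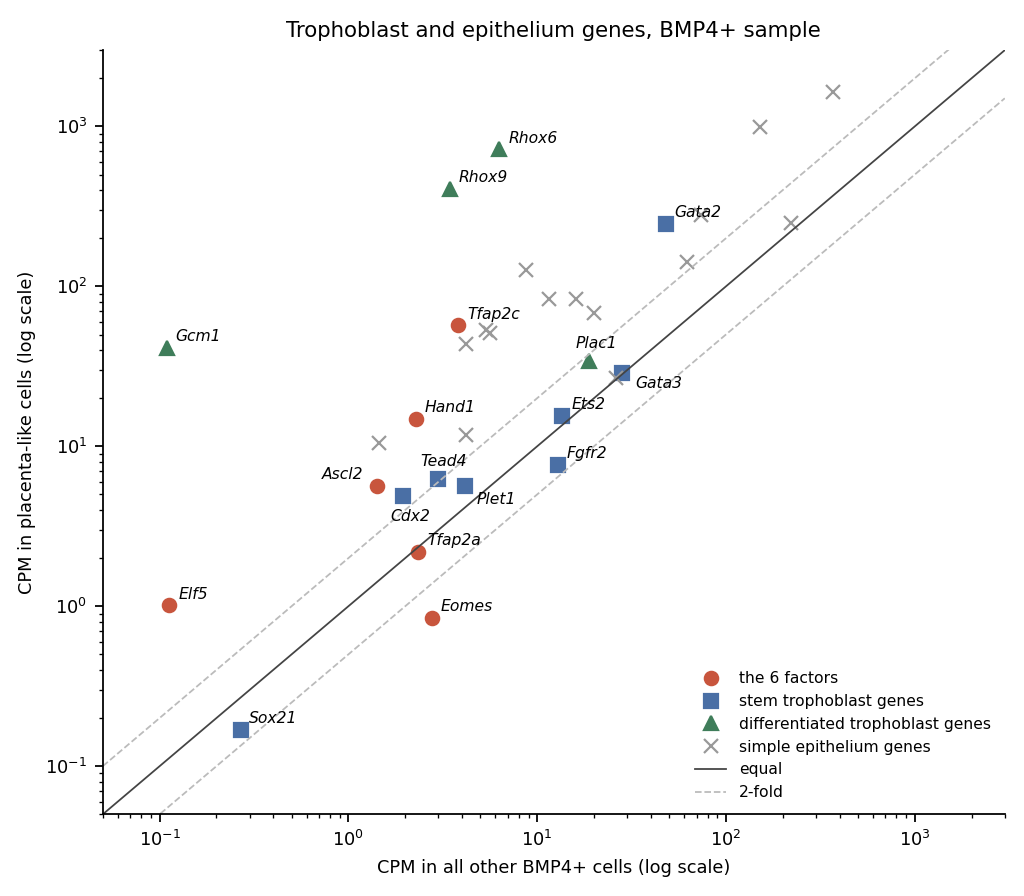
CPM in placenta-like cells (y axis, log scale) against CPM in all other BMP4+ cells (x axis, log scale) for the 6 factors, the trophoblast lists and the simple epithelium list, 1 point per gene; the solid line marks equal levels and the dashed lines 2-fold. Tfap2c, Hand1, Ascl2 and Elf5 lay above the upper dashed line, Tfap2a near equality and Eomes below, and genes with no UMI in placenta-like cells (Prl2c2, Syna) cannot be drawn on a log scale.

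Placenta-like cells were not the only source of these transcripts in the BMP4+ sample. They gave 40.7% of its Tfap2c UMIs, with 29.3% from endothelial and 26.2% from intermediate cells, whereas in the BMP4- sample pluripotent cells gave 67.1%. They gave 23.1% of the Hand1, 29.3% of the 41 Elf5, 15.5% of the Ascl2, 4.13% of the Tfap2a and 1.39% of the Eomes UMIs. Intermediate cells gave 81.9% of the Tfap2a UMIs and 58.3% of those of Hand1.

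Over all cells, Tfap2c was at 6.17 CPM in BMP4+ against 10.6 CPM in BMP4- cells and Ascl2 at 1.60 against 1.85 CPM. Tfap2a was at 2.34 against 1.09 CPM, Eomes at 2.68 against 1.32 CPM, Hand1 at 2.84 against 1.73 CPM and Elf5 at 0.152 against 0.106 CPM. By the size rule 2 factors (Tfap2a and Eomes) were higher and 0 lower, with 29.5% of all genes higher and 8.7% lower. The median gene was itself higher in BMP4+ cells by 0.53 on the log2 scale, and the top 50 genes took 25.8% of UMIs in BMP4+ against 36.5% in BMP4- cells. Relative to that median none of the factors was 2-fold higher, and Tfap2c, lower by 1.31, was the single one past 2-fold.

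Among cell types found in both samples, Tfap2a in intermediate cells had the widest difference, 3.20 CPM in BMP4+ and 0.709 CPM in BMP4-, or 1.70 on the log2 scale above the shift of the median gene. Tfap2c was at 13.9 against 4.51 CPM in endothelial cells but at 2.70 against 4.68 CPM in intermediate cells. The 228 BMP4+ endothelial cells with a Tfap2c UMI, examined after these values were seen, had less of the endothelial receptor Kdr (50.2 against 238 CPM) and of the junction gene Cdh5 (82.7 against 202 CPM) than the 1225 without. They had more Rhox6 (71.4 against 7.42 CPM), Gata2 (124 against 66.9 CPM) and Krt18 (275 against 130 CPM), at median depths of 25632 and 20773 UMIs. Gata3 was at 7.41 against 9.64 CPM, Eomes at 2.72 against 3.28 CPM, Tfap2a at 0.907 against 0.989 CPM, and Gcm1 had 1 UMI against 2. Cells with a Tfap2c UMI also had more Rhox6 than those without among BMP4+ intermediate cells (19.3 against 2.24 CPM) and BMP4+ PrECLCs (47.0 against 6.20 CPM). The same direction was seen in BMP4- intermediate cells (2.80 against 0.678 CPM) and, by less, in pluripotent cells (22.4 against 15.3 CPM). The 29 such BMP4- endothelial cells had 1.61 CPM of Rhox6 from 1 UMI (0.0407 to 8.95) against 3.72 CPM, which did not differ beyond counting error. Their Kdr was at 143 against 141 CPM. In BMP4- PrECLCs only 3 cells had a Tfap2c UMI, and these had no Rhox6 UMI. What part doublets or neighbouring clusters have in this was not tested.

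The bulk libraries followed the factors over time, in FPKM, a unit that keeps no depth, and in a bulk sample fewer cells of a type and less RNA per cell cannot be told apart. Differences are given on the log2(FPKM + 1) scale, which understates those of low genes, and a factor is counted as higher or lower when it reached 1 FPKM in either library and differed by at least 1. Tfap2c was listed at 0 FPKM at JGES day 0. In BMP4- cultures it was at 0.437 FPKM on day 1, 4.75 on day 3, 9.24 on day 5 and 13.5 on day 7, and in BMP4+ cultures at 0.188, 0.384, 0.659 and 1.89. It was thus higher on each later BMP4- day and stayed under 2 FPKM with BMP4, a difference of -2.05 on day 3, -2.63 on day 5 and -2.33 on day 7. On day 1 both libraries were under 1 FPKM.

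Hand1 went the other way. It was at 2.12 FPKM on day 0 and listed at 0 in both day 1 libraries. BMP4- cultures then had 0.182, 0.332 and 0 FPKM on days 3, 5 and 7, and BMP4+ cultures 5.08, 5.15 and 3.14, differences of 2.36, 2.21 and 2.05. The BMP4+ libraries of days 3, 5 and 7 lay above the day 0 value and the BMP4- libraries below it.

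Eomes had its highest bulk value of all 17 libraries in BMP4+ JGES on day 1, at 8.85 FPKM against 3.15 in BMP4- and 1.45 on day 0, a difference of 1.25. Later values were 3.81, 0.932 and 1.95 FPKM in BMP4- and 3.65, 1.60 and 1.32 in BMP4+ cultures on days 3, 5 and 7. The Eomes difference was therefore limited to day 1 among the 4 days by this size rule. Ascl2 was at 0.166 FPKM on day 0, at 0.881, 1.79, 0.621 and 1.22 FPKM in BMP4- cultures and at 0.172, 0.352, 0.0861 and 0.519 FPKM in BMP4+ cultures. It was lower with BMP4 on every day, and past the size rule on day 3 at -1.04.

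Tfap2a was at 0.284 FPKM on day 0, at 0.619, 0.220, 1.00 and 0.807 FPKM in BMP4- and at 0.0740, 1.06, 1.48 and 1.71 FPKM in BMP4+ cultures. Its values were higher with BMP4 from day 3 on, by 0.75, 0.31 and 0.58, and did not reach the size rule. Elf5 was listed at 0 FPKM in all 9 JGES libraries. Over the 4 days the factors counted as higher with BMP4 were Eomes on day 1 and Hand1 on days 3, 5 and 7, and those counted as lower were Tfap2c on days 3, 5 and 7 and Ascl2 on day 3. At day 7 the single cells differed from the bulk libraries for Hand1 and Eomes. Hand1 was at 2.84 against 1.73 CPM over all cells, or 0.19 on the log2 scale relative to the median gene, where bulk listed the BMP4- library at 0. Eomes was higher with BMP4 in single cells (2.68 against 1.32 CPM) and lower in bulk (1.32 against 1.95 FPKM). Tfap2c and Ascl2 were lower and Tfap2a higher with BMP4 in both. The source of the disagreement was not tested.

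Among all genes that reached 1 FPKM, 3.75% were higher and 5.72% lower with BMP4 on day 1, 6.81% and 8.99% on day 3, 8.78% and 13.2% on day 5, and 10.3% and 13.8% on day 7. The median gene moved by -0.18 on day 5 and -0.14 on day 7, and every factor past the size rule kept its direction when the libraries were scaled to one another. Eomes on day 3, whose libraries were nearly level, went from -0.05 to 0.02 with scaling. Of the 8 stem trophoblast genes, 3, 3, 2 and 2 were higher and 0, 1, 4 and 2 lower on days 1, 3, 5 and 7. Gata2 and Gata3 were higher with BMP4 on each day, with Gata2 at 31.1 against 3.50 FPKM and Gata3 at 11.8 against 2.39 FPKM on day 7. Cdx2 was lower on day 5 (listed at 0 against 6.90 FPKM) and on day 7 (1.31 against 3.73 FPKM), where scaling left it just short of the size rule. Sox21 was lower on days 3, 5 and 7 (0.185 against 1.61 FPKM on day 7), and Tead4 and Plet1 were lower on day 5, with Plet1 short of the size rule when scaled. Of 12 differentiated trophoblast genes 3 were higher and none lower on day 7, Rhox6, Rhox9 and Prl2c2, the last at 1.44 FPKM against a listed 0. Gcm1, Rhox6 and Rhox9 were at 1.21, 9.73 and 5.97 FPKM with BMP4 on day 7 against 0.187, 2.20 and 0.864 FPKM, and the first of them fell short of the size rule. On the earlier days none of the 12 was higher and 2 were lower, Syna on day 1 (0.635 against 2.69 FPKM) and Rhox9 on day 5, listed at 0 against 1.43 FPKM. Tpbpa, the defining spongiotrophoblast marker, was listed at 0 in all 9 JGES libraries.

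Markers of other cell types moved with BMP4 as well. Of 6 fibroblast markers 1, 4, 6 and 4 were higher with BMP4 on days 1, 3, 5 and 7 and none was lower, and their summed level was between 65.4 and 349.7 FPKM in BMP4- and between 292 and 727 FPKM in BMP4+ cultures. Of 6 pluripotency markers 2, 5, 6 and 6 were lower and none was higher, with summed levels from 4.86 to 814.6 FPKM in BMP4- and from 0.602 to 28.3 FPKM in BMP4+ cultures. None of these 12 markers was at 0 in all libraries of an arm. Of 6 germ cell genes 1, 2, 4 and 4 and of 6 mesendoderm genes 0, 4, 4 and 3 were lower on the 4 days, and none was higher. On day 7, 7 of 15 simple epithelium, 5 of 10 keratinocyte and 4 of 6 primitive endoderm genes were higher with BMP4, with 2, 0 and 0 lower. On days 1, 3 and 5, 0, 3 and 3 simple epithelium genes were higher and 4, 3 and 2 lower. Of the keratinocyte genes 0, 2 and 2 were higher and none lower. No primitive endoderm gene was higher on these days, and 0, 1 and 0 were lower. Of 8 neural crest and mesenchyme factors 1, 2 and 4 were higher, and Sox10 was lower on each of these days. The lower Tfap2c thus stood beside lower pluripotency, germ cell and mesendoderm genes. The higher Hand1 of days 3, 5 and 7 stood beside higher fibroblast and keratinocyte genes on each of these days, and beside higher primitive endoderm genes on day 7 only. The part of these cell types in the differences of both factors was not tested in the bulk libraries.

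**Figure D3:**
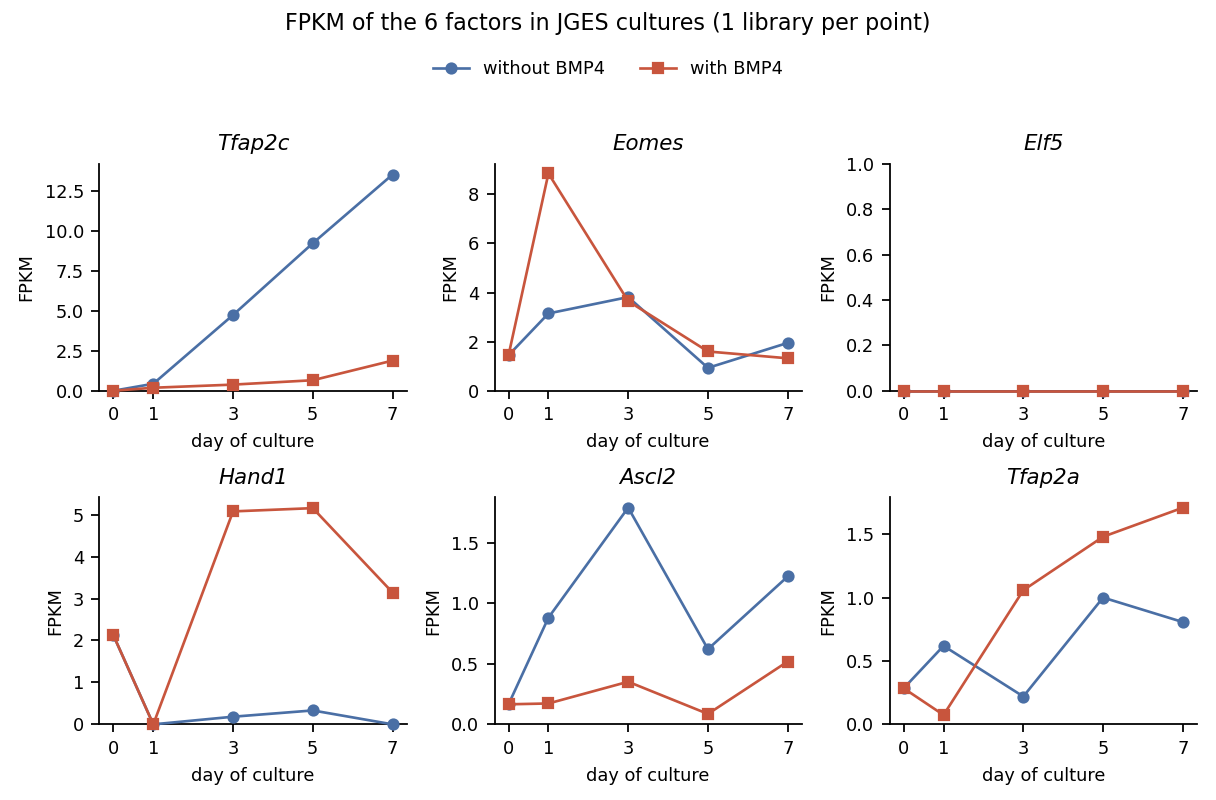
FPKM (y axis, linear, a separate scale for each gene) of the 6 factors by day of culture (x axis) in JGES cells without BMP4 (blue circles) and with BMP4 (red squares), 1 library per point with the day 0 library shared by both lines. Tfap2c reached 13.5 FPKM without BMP4 and 1.89 FPKM with it, Hand1 was above 3 FPKM on days 3, 5 and 7 with BMP4 alone, and Elf5 was listed at 0 throughout.

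At day 7 none of the factors passed the size rule in the other factor sets. In JGEO and JGESO the BMP4 targets Id1 and Id3 were not higher in the BMP4+ libraries. Id1 is given above, and Id3 was at 172 against 285 FPKM in JGEO and 316 against 432 FPKM in JGESO, while in JGE it was at 401 against 175 FPKM. Msx2, a homeobox gene that responds to BMP, was higher with BMP4 in all 3 of these sets, at 16.9 against 1.25 FPKM in JGE, 5.65 against 1.90 FPKM in JGEO and 60.8 against 16.6 FPKM in JGESO. Gata2 was at 23.9 against 14.5 FPKM in JGEO and 26.5 against 16.6 FPKM in JGESO, and Gata3 at 3.54 against 2.11 FPKM and 6.77 against 2.07 FPKM. Tfap2c was at 2.61 FPKM in BMP4- and 1.34 FPKM in BMP4+ JGE cultures, at 11.7 and 9.01 FPKM in JGEO and at 21.17 and 10.96 FPKM in JGESO, with the BMP4+ library lower in each by 0.63, 0.34 and 0.89 on the log2(FPKM + 1) scale. Its highest BMP4- level therefore came with Sall4 and Oct4 together and its lowest with neither. Hand1 was at 0.763 and 0.406 FPKM in JGE, listed at 0 and at 0.291 FPKM in JGEO, and at 0.906 and 2.69 FPKM in JGESO, where the difference of 0.95 was just under the size rule.

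Eomes had differences of -0.52, 0.48 and -0.37 in JGE, JGEO and JGESO, against -0.34 in JGES on day 7. It was highest without Sall4 or Oct4, at 6.07 and 3.92 FPKM in BMP4- and BMP4+ JGE, against 1.56 and 2.56 FPKM in JGEO and 1.78 and 1.16 FPKM in JGESO. Tfap2a was at 2.48 and 2.28 FPKM in JGE, 1.88 and 2.57 in JGEO and 3.28 and 4.15 in JGESO. Ascl2 was between 0.230 and 0.760 FPKM and Elf5 at or under 0.0918 FPKM in these 6 libraries. Over all genes the shares higher and lower with BMP4 were 4.28% and 4.78% in JGE, 2.26% and 1.95% in JGEO and 5.29% and 3.52% in JGESO. The part of the levels of Id1 and Id3 in the differences of the factors was not tested.

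The arm with SALL4 alone gave the 4 highest levels of Tfap2c among the 17 libraries. SALL4-WT libraries had 0.485 FPKM on day 1, 1.39 on day 5, 2.24 on day 9 and 2.36 on day 11, and SALL4-delN12 libraries 25.2, 21.4, 30.4 and 13.9. All 4 delN12 libraries lay above all 4 SALL4-WT libraries, and the differences were 4.14, 3.23, 3.28 and 2.15 on the log2(FPKM + 1) scale. The gap was present on day 1, before any of the other 5 factors differed between the forms by the size rule.

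Hand1 was at 0.474, 1.09, 1.50 and 0.152 FPKM with SALL4-WT and at 0.119, 12.9, 2.51 and 1.43 FPKM with SALL4-delN12 on the same days. The day 5 delN12 library stood out, with a difference of 2.73, and the day 11 difference was 1.07, at low levels. Eomes was at 0.346, 0.216, 0.467 and 0.232 FPKM with SALL4-WT and at 0.198, 2.46, 2.61 and 0.956 FPKM with SALL4-delN12, higher by 1.51 on day 5 and 1.30 on day 9.

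Ascl2 stayed under 1 FPKM in all 8 libraries, at 0.586, 0.346, 0.661 and 0.511 FPKM with SALL4-WT and 0.139, 0.215, 0.189 and 0.292 FPKM with SALL4-delN12, values under the floor of the size rule. Tfap2a was at 1.12, 4.94, 4.44 and 4.63 FPKM with SALL4-WT and at 1.09, 2.70, 2.49 and 3.38 FPKM with SALL4-delN12, with differences of -0.02, -0.68, -0.64 and -0.36 that did not pass the size rule. Elf5 was at most 0.139 FPKM.

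By the size rule 1 factor was higher in SALL4-delN12 on day 1 (Tfap2c), 3 on day 5 (Tfap2c, Eomes and Hand1), 2 on day 9 (Tfap2c and Eomes) and 2 on day 11 (Tfap2c and Hand1), and none was lower on any day. Of all genes, 4.18% were higher and 5.63% lower on day 1, 4.67% and 5.19% on day 5, 6.09% and 5.75% on day 9, and 6.55% and 6.58% on day 11. Of the 15 simple epithelium genes, 5, 9, 10 and 12 were higher on the 4 days, with Krt8 at 141 against 9.79 FPKM on day 1, and 1 was lower, Spint2 on day 1 at 21.4 against 80.5 FPKM. Of the 8 stem trophoblast genes, Cdx2 and Plet1 were higher on days 5, 9 and 11, with Cdx2 at 2.34 FPKM against 0 on day 5. Plet1 was lower on day 1, at 1.62 against 6.30 FPKM. Rhox6 was higher on days 9 and 11 (14.7 against 2.13 FPKM on day 11), whereas Prl2c2 was lower on days 5, 9 and 11. Summed over the list, simple epithelium was between 241.7 and 275.2 FPKM with SALL4-WT and between 1029 and 1129 FPKM with SALL4-delN12. The 6 fibroblast markers summed to between 1010 and 1972 FPKM with SALL4-WT and between 1853 and 2268 FPKM with SALL4-delN12, with none at 0, and 2, 1, 0 and 0 of them were higher and 0, 1, 1 and 2 lower on the 4 days. The 6 pluripotency markers summed to at most 0.463 FPKM with SALL4-WT and 5.70 FPKM with SALL4-delN12. Of 6 primitive endoderm markers 1, 2, 5 and 6 were higher with SALL4-delN12 and none lower, with sums from 13.5 to 22.7 FPKM with SALL4-WT and from 14.8 to 303.9 FPKM with SALL4-delN12. Of 10 keratinocyte genes 2, 7, 3 and 2 were higher and 1, 0, 0 and 1 lower. The part of these cell types in the differences of Tfap2c, Eomes and Hand1 was not tested.

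**Figure D4:**
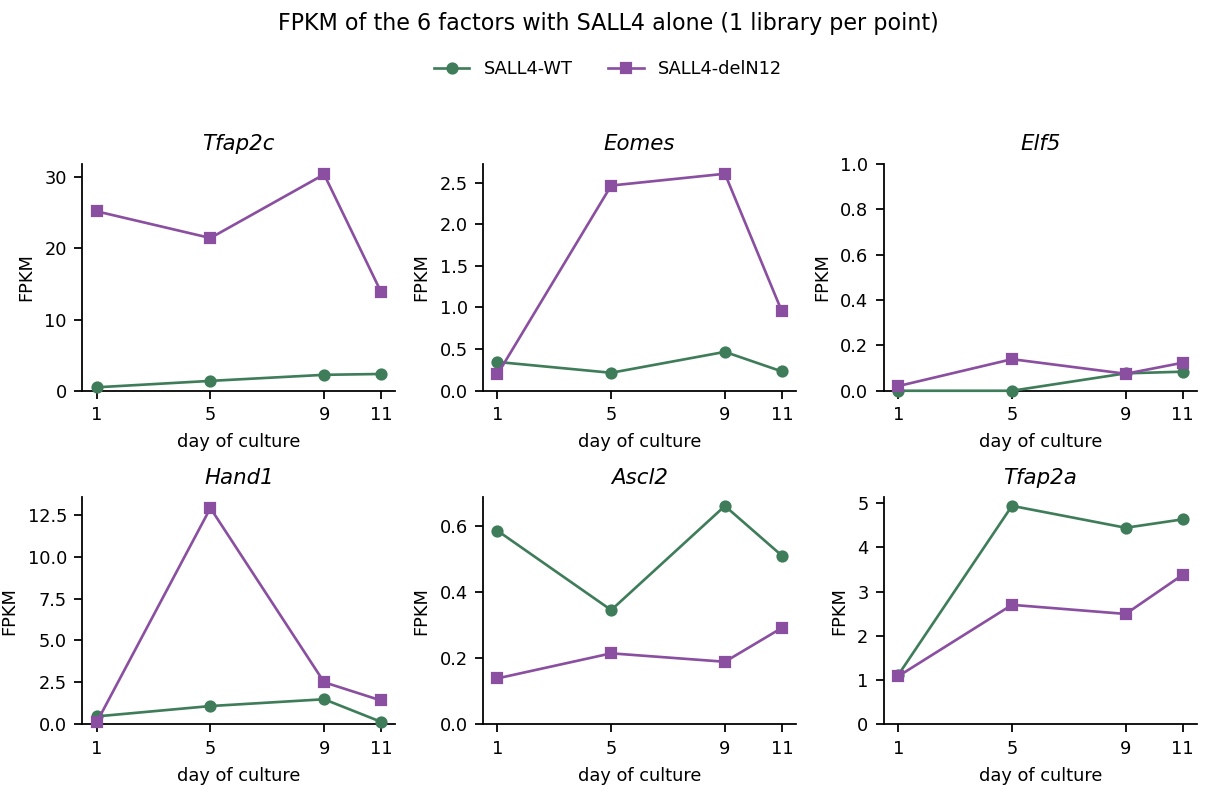
FPKM (y axis, linear, a separate scale for each gene) of the 6 factors by day (x axis) with SALL4-WT (green circles) or SALL4-delN12 (purple squares) delivered alone, 1 library per point. Tfap2c was between 13.9 and 30.4 FPKM with SALL4-delN12 and at most 2.36 FPKM with SALL4-WT, and Hand1 had a single high value of 12.9 FPKM on day 5.

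Over the 17 libraries the 6 factors did not vary as one group. Leaving out Elf5, which was listed at 0 in 11 of the 17, the closest pair was Hand1 with Tfap2a (Pearson r = 0.31) and the most opposed Eomes with Tfap2a (r = -0.63), while Tfap2c with Hand1 had r = 0.06. The libraries of an arm share their transduced factors and all 17 the fibroblast background, so these values describe the 17 libraries only. The 3 genes most like Tfap2c were Ppp2r5a (r = 0.89), Zfp346 (0.86) and Eri3 (0.86), and those most like Eomes were St6galnac5 (0.86), Ngfr (0.86) and Gpr135 (0.84). Hand1 was most like Sec22b (0.78), Mir6992 (0.76) and Vgll4 (0.74), Ascl2 most like Rbm24 (0.91), Efna3 (0.83) and Dtx1 (0.82), and Tfap2a most like Slc35f5 (0.94), Fam105a (0.93) and Pla2g7 (0.93).

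Chromatin at the 6 genes was read from the deposited peak lists, in which no score was below 50, and a gene was counted when a peak lay within 2 kb of one of its start sites. Open chromatin was common. In MEFs all 6 genes had an ATAC-seq peak, as did 70.3% of 21938 protein-coding genes. With SALL4-WT the counts were 5, 6, 6 and 6 on days 1, 5, 9 and 11, against 64.5%, 68.4%, 67.9% and 68.2% of all genes. With SALL4-delN12 they were 6, 4, 6 and 5, against 62.5%, 64.3%, 65.6% and 66% of all genes. Hand1 lacked a peak on day 1 of SALL4-WT, Elf5 and Hand1 on day 5 of SALL4-delN12 and Elf5 on its day 11.

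At Tfap2c an ATAC-seq peak over a start near chr2:172550511-172550769 (its MEF peak, score 198.2) was found in all 9 libraries. Its score was 232.58, 147.89, 165.76 and 210.19 with SALL4-WT on days 1, 5, 9 and 11, and 100.25, 198.63, 391.14 and 160.95 with SALL4-delN12. The ranges of the forms overlapped, unlike the FPKM values. Scores depend on library depth and are not normalised between libraries. No SALL4 peak lay within 2 kb of Tfap2c in either form. H3K27ac was called there in SALL4-delN12 alone, as a peak of 3414 bases at chr2:172548715-172552128 with a score of 162.21.

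At Elf5 the upstream start, whose sequence is printed above, had an ATAC-seq peak in all 4 SALL4-WT libraries, with scores of 235.64, 308.27, 199.53 and 143.74. It was not called in MEFs, present on day 1 of SALL4-delN12 at a score of 54.42 and not called on the 3 later days. The day 1 SALL4-WT peak (chr2:103411435-103411707) covers the whole printed window, with the AP-2 letters and the AATATT run. A SALL4 Cut&Tag peak of SALL4-WT (chr2:103411034-103412250, score 200.31) lay over the same start, and none of SALL4-delN12 did. The gene had no H3K27ac peak there, and its RNA was at most 0.139 FPKM in these libraries.

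At Ascl2 the printed window had ATAC-seq peaks in MEFs (score 67.14), in SALL4-WT on days 5, 9 and 11 (56.47, 53.24 and 61.14) and in SALL4-delN12 on day 11 (68.75), all near the calling threshold. The stronger peaks lay inside the gene, where SALL4-WT had a SALL4 peak (chr7:142967040-142968437, score 147.64) and SALL4-delN12 an H3K27ac peak (chr7:142967243-142968534, score 97.02) over the same stretch. At Tfap2a a SALL4 peak near a start was called with SALL4-WT (chr13:40730746-40732089) at a score of 54.49, and an H3K27ac peak with SALL4-delN12 (chr13:40730511-40734498) at 108.4. A further region inside Tfap2a, over 2 kb from any start, had a peak in all 9 ATAC-seq and all 4 Cut&Tag lists. At Eomes the H3K27ac peak of SALL4-delN12 scored 89.82, and at Hand1 no Cut&Tag peak lay within 2 kb.

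In count, SALL4 peaks lay at 3 of the 6 genes with SALL4-WT (Elf5, Ascl2 and Tfap2a), against 57.4% of all genes, and at 0 with SALL4-delN12, against 44.3%. H3K27ac peaks lay at 0 of the 6 with SALL4-WT, against 50.9% of all genes, and at 4 with SALL4-delN12 (Tfap2c, Eomes, Ascl2 and Tfap2a), against 60.6%. Genes with SALL4 in SALL4-WT only were 16.4% of all genes, and genes with H3K27ac in SALL4-delN12 only were 10.9%. The 4 genes with H3K27ac in SALL4-delN12 only included Tfap2c and Eomes, whose RNA was higher there on days 5 and 9, and Ascl2 and Tfap2a, whose RNA did not pass the size rule on any day. The H3K27ac lists held 19841 peaks with SALL4-WT and 45599 with SALL4-delN12, and the SALL4 lists 69475 and 67310, so the H3K27ac lists differed in length, and the part of that in the calls at the 6 genes was not tested. Each Cut&Tag list was called on merged replicates, so its spread is unknown.

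**Figure D5:**
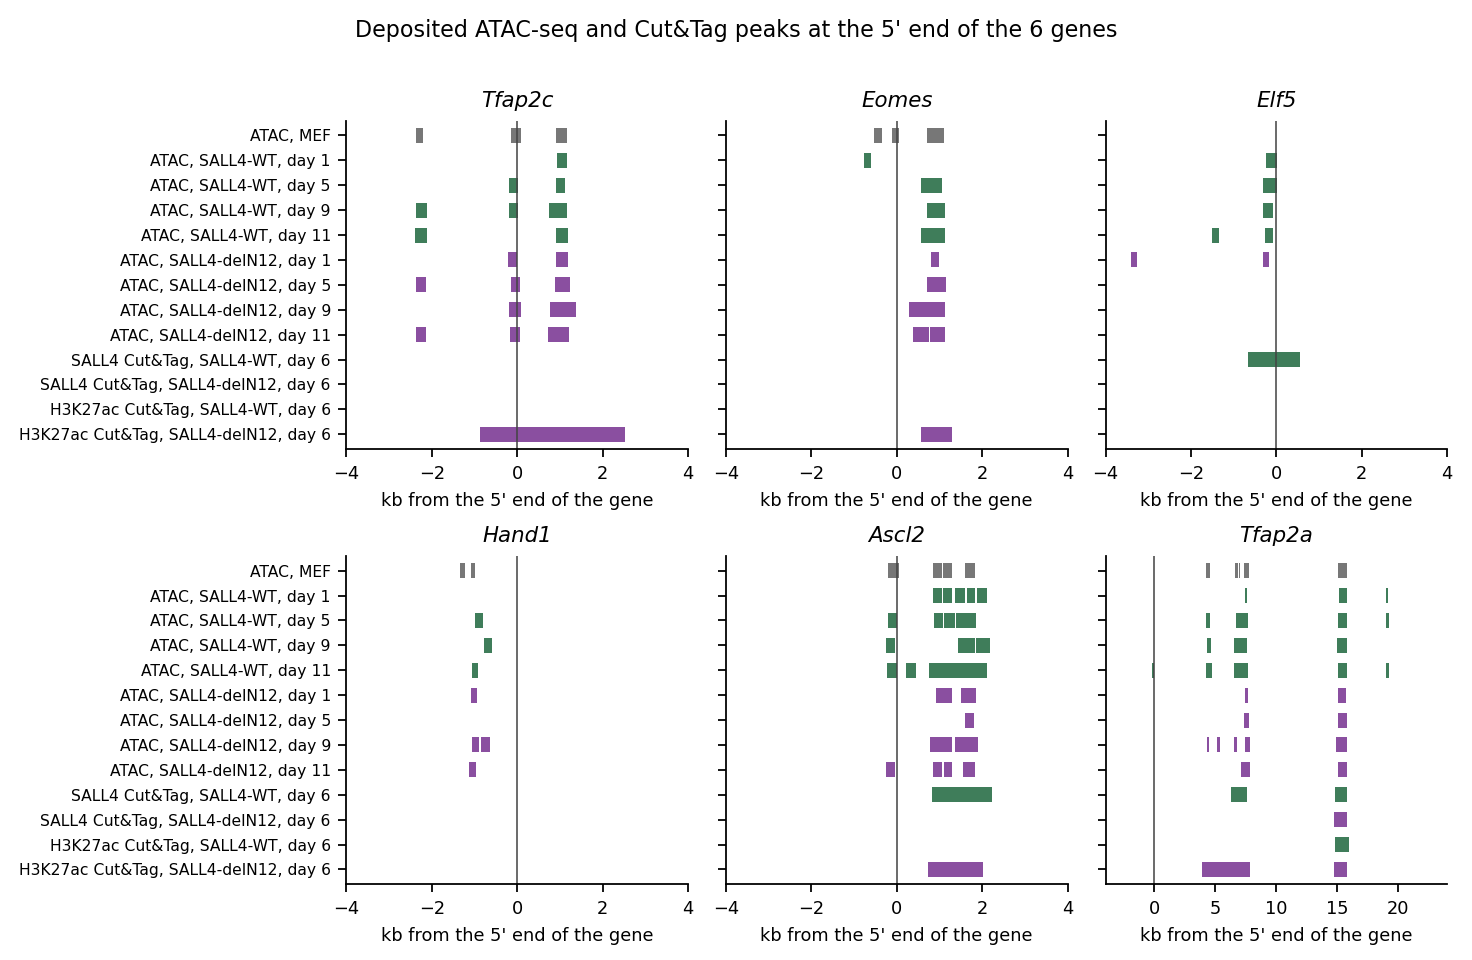
Deposited peaks (bars) around the 5′ end of each gene as annotated, in kb along the gene (x axis, negative values upstream, a wider range for Tfap2a), for each ATAC-seq and Cut&Tag list (rows; MEFs in grey, SALL4-WT in green, SALL4-delN12 in purple). The Elf5 start had open chromatin and SALL4 with SALL4-WT, and Tfap2c had H3K27ac over its starts with SALL4-delN12 alone.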

How the data were processed

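The 6 genes and all gene lists were chosen with earlier results of these data known. Per the submitters' processing notes, reads were trimmed with Trim Galore 0.6.4, bulk RNA-seq was aligned to mm10 with HISAT2 2.2.1 and quantified with StringTie 2.2.1, and ATAC-seq and Cut&Tag used Bowtie2 2.4.5, SAMtools 1.16.1 and MACS 1.4.2. The authors deposited FPKM per gene, per-cell UMI counts (STARsolo, GENCODE annotation) with a cell type for each cell, and peak lists with a score. Sequencing depth behind the FPKM values and peak scores is not given in the sources used here. For ATAC-seq, reads under 50 bp were used, and Cut&Tag replicates were merged before calling.

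Here FPKM was compared as log2(FPKM + 1) within a table (JGES day 7 from the table of 17 libraries), UMIs were summed per sample and cell type into CPM with exact Poisson intervals, and shares have Clopper-Pearson intervals at 95%. Cells were thinned to 4000 UMIs, which no cell fell below. Doublets were not called; the 6% deepest cells of each sample were left out as an alternative. A total of 10749 columns of other cells in the single-cell table were not used. Named genes were the 6 factors, the listed genes, the 3 genes most correlated with each factor, and the 10 with the highest fold in placenta-like cells. The counting functions were tested on simulated data. Python 3.11.15, pandas 2.3.3 and scipy 1.17.1 were used.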

Additional observations from a re-analysis of the deposited data

Results flagged for a closer look

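Tfap2c differed between BMP4+ and BMP4- cells in opposite directions in cells labelled endothelial and intermediate. Relative to the shift of the median gene it was higher by 1.19 on the log2 scale in endothelial cells (487 and 38 UMIs) and lower in intermediate cells at -1.27 (435 and 389 UMIs). Each cell type had 1 sample with and 1 without BMP4, so the difference between the cell types was not tested.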

How the results depend on the processing

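No analysis paired by replicate was possible because every condition was 1 sample with no replicate number to pair on, and for the same reason no replicate could be left out. A comparison with the 4 days as blocks was not run, since the days are not replicates of a condition. No bulk difference past the size rule reversed under the alternatives tried, but some below it changed sign, Eomes in JGES on day 3 (-0.05, 0.02 when scaled) and, relative to the median gene in single cells, Hand1 in intermediate cells (0.29 to -0.18), Eomes in PrECLCs (0.42 to -0.02) and Elf5 in intermediate cells (0.43 to -0.05) and over all cells (0.53 to about level). Of 72 single differences of a factor in bulk, 72 kept their side of the size rule when libraries were scaled and 68 with a pseudocount of 0.1, which added Tfap2a in JGES on day 3 (1.86), Ascl2 in JGES on day 7 (-1.09 in both copies of these libraries) and Hand1 in JGESO (1.47), so that the factor sets counted 2 higher and 2 lower in place of 1 and 1 (both from JGES). The share of placenta-like cells with 2 or more factors was 0.779% at 2000 UMIs and 20.3% without thinning. At 5 CPM and 4-fold, 2 factors were higher (Tfap2c and Hand1) and 0 lower (1.84% and 5.08% of all genes), 1 stem trophoblast gene was higher and 0 differentiated trophoblast genes were lower. Peaks with a score of at least 100 left 13 of 21 counts of a factor with an ATAC-seq peak over the 4 SALL4-delN12 libraries (55.1% to 59.5% of all genes per library), against 20 of 23 over the 4 SALL4-WT libraries (55.8% to 63.3%) and 4 of 6 in MEFs (65.8%), and 2 of 4 with H3K27ac in SALL4-delN12 (54.6%) and 2 of 3 with SALL4 in SALL4-WT (44%). Within 10 kb, 2 factors had SALL4 in SALL4-delN12 (60.4% of all genes) and 1 had H3K27ac in SALL4-WT (57.8%), in place of 0 and 0. Over all single cells, 0 factors were higher and 1 lower with BMP4 relative to the median gene, an alternative chosen after seeing the data. Placenta-like CPM of each factor stayed within its counting interval by mean of cells, without the deepest cells and in the marker-positive cells, an interval that is wide for Eomes (1.38, 1.12 and 0.474 CPM in that order, from 0.842). Calls against the other BMP4+ cells were still lost. Elf5 was no longer counted as higher by mean of cells (0.900 CPM) or without the deepest cells (0.783 CPM). Eomes was no longer counted as lower by mean of cells (1.38 against 2.58 CPM). Depth limits Elf5 and Eomes in single cells, and no depth is known for FPKM.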
